A study of Kandelia obovata with 24 samples.

Results

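Described here are 28 unigenes of *Kandelia obovata* leaves whose transcripts were abundant in the libraries labelled ABA-100 at 10.2 ℃ and ABA-100 at -4.1 ℃ and scarce in the other labelled stages that the choice used. A unigene is a gene-level cluster of transcripts that were assembled from the reads without a genome. The deposited table holds 33344 unigenes, and 21523 of them reached at least 1 TPM (a transcript level scaled by length and to 1 common total per library) in at least 3 of the 24 libraries. Of these, 30 had a mean log2(TPM + 1) in both high groups that was at least 1 above the means of ABA-100 at -5.3 ℃ and at 9.7 ℃ and of CK at 10.2 ℃ and at -4.1 ℃, which are called the 4 low groups. For 2 of the 30 the high groups differed from each other by 1 or more and were left out, namely DN15080_c0_g1 (66.8 TPM at -4.1 ℃ and 27.6 TPM at 10.2 ℃) and DN26_c1_g1 (7.76 TPM at -4.1 ℃ and 3.15 TPM at 10.2 ℃). The 12 hub unigenes that the study took from its co-expression network were also to be left out, and 0 of them met the rule. The means of CK (-5.3 ℃) and CK (9.7 ℃) did not enter the choice, so the 6 libraries of these groups are the ones in which the unigenes could be tested. These libraries did count in the filter of 1 TPM in 3 libraries, but the same 28 were chosen without that filter.

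The study sprayed field-planted seedlings of this mangrove with abscisic acid (ABA) before a natural freeze and sampled leaves for RNA-Seq over the cold spell. ABA-100 stands for seedlings sprayed with 100 mg L-1 ABA and CK for seedlings sprayed without ABA. Leaves were taken at 10.2 ℃ before the spray, at -4.1 ℃ and -5.3 ℃ during the freeze, and at 9.7 ℃ in the recovery, with 3 libraries for each of the 8 groups. The labels name CK as wild type, give no genotype for ABA-100, and name leaf as the tissue of all libraries. The libraries of a group are described in the methods as biological replicates, the same seedlings were followed through the stages, and the labels do not tie a library to a plot or seedling.

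ABA is a plant hormone that accumulates under drought, salt and cold. It is bound by PYR/PYL/RCAR receptors, which then hold back a class of protein phosphatases and so release SnRK kinases, and these kinases switch on transcription factors of ABA-responsive genes and close the stomata. *K. obovata* is a viviparous mangrove of the East Asian coast and among the more cold-hardy trees of its family, and freezing limits where it can be planted.

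The table pairs none of the 28 unigenes with a gene name, and no transcript sequence or annotation was used here, so the unigenes are named by their assembly identifiers, their functions are not given, and leaf markers could not be examined. Each library carries a code with a letter from A to D, and the 2 high groups share the letter C. The high groups include leaves that, by their labels, were taken before any ABA was applied, and leaves labelled CK (10.2 ℃) came from the same stage. The paper's drawings of the libraries arrange the groups in another way than the deposited titles do, and whether the code letters mark stages and the code digits treatments was not settled. If they do, the stage, the treatment or both would be different for most of the groups below, and the high groups, which share a letter, would be of the same stage. The titles were followed, no library was moved, and every direction below is that of the groups as labelled, so that a difference between ABA-100 and CK libraries, or between stages, may not be an effect of ABA or of temperature. Because leaves were measured in bulk, fewer cells of a type and less RNA per cell cannot be told apart.

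The libraries had 25523 to 27061 unigenes above 0 TPM, and their read depth is unknown because TPM values keep no depth. Replicate 3 of ABA-100 (-5.3 ℃) stood apart in the choice of unigenes. When it was left out of its group mean, 57 unigenes met the rule in place of 28, and all 28 were among the 57. The filter of at least 1 TPM in 3 libraries still counted all 24 libraries, here and wherever 1 library was left out. Of the 29 additional unigenes, 25 had at least 1 TPM only in replicate 3 of ABA-100 at 10.2 ℃, at -4.1 ℃ and at -5.3 ℃, a pattern that none of the 28 showed. These 25 would have failed the filter without the left-out library, so the number 57 depended on that library still being counted.

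The 28 were chosen by their mean log2(TPM + 1) in the 2 high and 4 low groups, so the values of these 6 groups are given as a description without a test. The median unigene of the 28 had a group mean log2(TPM + 1) of 3.04 in ABA-100 (10.2 ℃) and 3.26 in ABA-100 (-4.1 ℃). It stood at 0.68 in ABA-100 (-5.3 ℃), 1.62 in ABA-100 (9.7 ℃), 0.57 in CK (10.2 ℃) and 0.68 in CK (-4.1 ℃). In the groups whose means were not used, the median was 0.66 in CK (-5.3 ℃) and 0.53 in CK (9.7 ℃), which lay with the low groups. The median over all 21523 unigenes stayed between 3.02 and 3.24 in the 8 groups. The 28 were thus near the typical level of a leaf unigene in the high groups only, and averaged over all 24 libraries their median was 2.95 TPM (range 0.654 to 35.1), against 8.14 TPM for all unigenes tested.

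**Figure D1:**
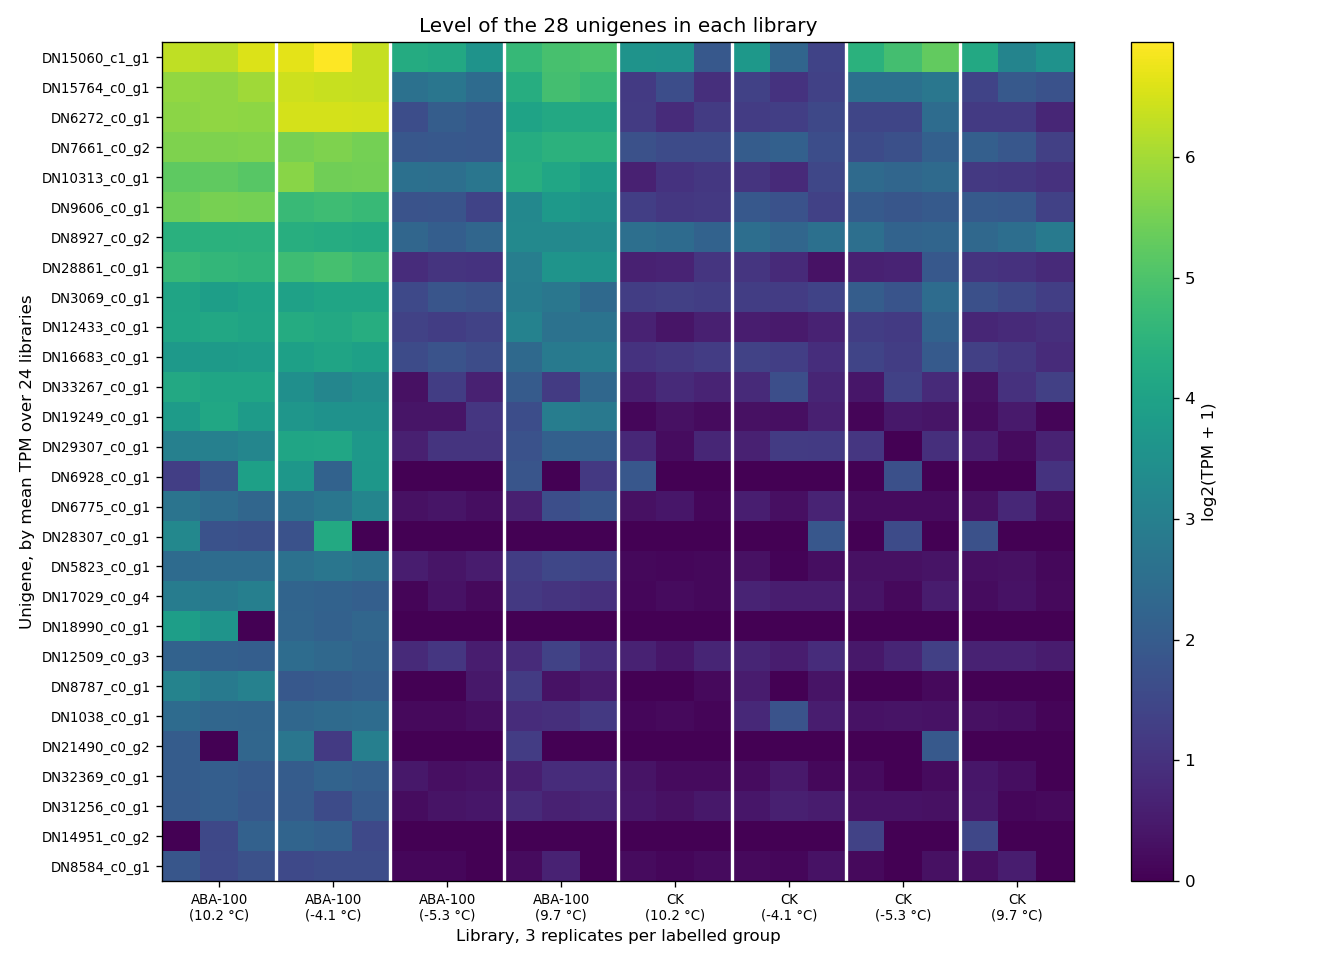
Level of each of the 28 unigenes in each of the 24 libraries as log2(TPM + 1), with 1 row per unigene in order of mean TPM and 1 column per library, 3 per labelled group. In 23 rows the 6 columns of ABA-100 (10.2 ℃) and ABA-100 (-4.1 ℃) all lie above the other 18. ABA-100 (9.7 ℃) has the highest mean of the other 6 groups in 22 rows, and 5 rows hold many libraries at 0.

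Summed over the 28 unigenes, ABA-100 libraries held 507 ± 14.3 TPM at 10.2 ℃, 579 ± 31.2 TPM at -4.1 ℃, 48.5 ± 4.31 TPM at -5.3 ℃ and 173 ± 13.4 TPM at 9.7 ℃ (SD, n = 3 each). CK libraries held 27.0 ± 5.83 TPM at 10.2 ℃, 31.0 ± 4.65 TPM at -4.1 ℃, 66.3 ± 16.3 TPM at -5.3 ℃ and 36.3 ± 7.03 TPM at 9.7 ℃ (SD, n = 3 each). The sum followed a high, high, low, intermediate course over the 4 ABA-100 stages and stayed low over the 4 CK stages. For 23 of the 28 unigenes every library of the high groups lay above each of the other 18 libraries, as did 0.711% of all unigenes tested. The rule itself set the means of the 4 low groups below the high groups, so this count is not independent of the choice.

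Between the high groups, ABA-100 (-4.1 ℃) had the higher mean for 17 of the 28, a share close to the 61.2% of all unigenes tested, and the description below is of single unigenes. Every ABA-100 (-4.1 ℃) library lay above every ABA-100 (10.2 ℃) library for 9 of the 28 (29.5% of all unigenes tested), and below for 7 (13%). DN6272_c0_g1 had 89.9, 90.0 and 87.2 TPM at -4.1 ℃, against 52.2, 54.2 and 53.8 TPM at 10.2 ℃. DN29307_c0_g1 had the widest such gap among the 28, with 15.9, 16.4 and 12 TPM at -4.1 ℃, against 7.10, 7.13 and 8.16 TPM at 10.2 ℃. These unigenes were higher at the first freezing stage than before the spray, with no overlap of replicates. The opposite order was found for DN9606_c0_g1, with 25.3, 26.4 and 24.8 TPM at -4.1 ℃, against 41.7, 44.8 and 43.8 TPM at 10.2 ℃. DN33267_c0_g1 had 9.94, 8.14 and 9.64 TPM at -4.1 ℃, against 17.4, 16.1 and 16 TPM at 10.2 ℃. DN8787_c0_g1 had 2.79, 3.01 and 3.31 TPM at -4.1 ℃, against 7.58, 6.21 and 7.37 TPM at 10.2 ℃, close to the widest gap that the rule allowed. The 28 were therefore not of 1 shape within the high groups, although all were at least 1 log2 unit above the low groups in both.

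DN15060_c1_g1 was the most abundant of the 28. It had 76.5, 74.8 and 94.8 TPM in ABA-100 (10.2 ℃), 100.2, 123 and 79.4 TPM in ABA-100 (-4.1 ℃), 18.2, 17.4 and 10.8 TPM in ABA-100 (-5.3 ℃), and 24.3, 29.3 and 30.7 TPM in ABA-100 (9.7 ℃). In CK it had 10.9, 10.6 and 2.78 TPM at 10.2 ℃, 11.9, 3.83 and 1.66 TPM at -4.1 ℃, 20.7, 28.3 and 37.9 TPM at -5.3 ℃, and 17.2, 7.85 and 10.7 TPM at 9.7 ℃. It was the member with the highest remaining level in CK (-5.3 ℃), 31.7% of its mean in the high groups, and its replicates spread more than those of the other abundant unigenes. DN15764_c0_g1 had 55.4, 54.2 and 60.7 TPM in ABA-100 (10.2 ℃) and 84.3, 81.2 and 79.4 TPM in ABA-100 (-4.1 ℃), then 5.03, 5.66 and 4.43 TPM at -5.3 ℃ and 19.2, 28.5 and 25.4 TPM at 9.7 ℃. Its 12 CK libraries lay between 0.93 and 5.80 TPM. It was thus high, low and partly high again along the ABA-100 stages, with CK below all of these but ABA-100 (-5.3 ℃).

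The other abundant unigenes had a like course with different details. DN6272_c0_g1 had 2.14, 3.14 and 2.68 TPM in ABA-100 (-5.3 ℃) and 15.3, 17.2 and 17.3 TPM in ABA-100 (9.7 ℃), and its CK libraries lay between 0.68 and 4.49 TPM. DN7661_c0_g2 had 47.6, 47.7 and 49.0 TPM in ABA-100 (10.2 ℃), 45.3, 47.4 and 44.2 TPM in ABA-100 (-4.1 ℃), 2.71, 2.74 and 2.68 TPM in ABA-100 (-5.3 ℃), and 18.6, 21.0 and 21.2 TPM in ABA-100 (9.7 ℃). Its replicates lay close together within each ABA-100 group, and its CK libraries lay between 1.48 and 3.41 TPM. DN10313_c0_g1 had 36.3, 37.1 and 34.2 TPM in ABA-100 (10.2 ℃), 51.0, 42.7 and 43.2 TPM in ABA-100 (-4.1 ℃), 4.92, 4.77 and 5.65 TPM in ABA-100 (-5.3 ℃), and 19.6, 16.3 and 13.6 TPM in ABA-100 (9.7 ℃). In CK it had 4.30, 3.93 and 4.30 TPM at -5.3 ℃, above the 0.56 to 1.81 TPM of the other 9 CK libraries. DN9606_c0_g1 had 2.44, 2.47 and 1.62 TPM in ABA-100 (-5.3 ℃), 8.47, 12.4 and 11.1 TPM in ABA-100 (9.7 ℃), and 1.20 to 2.93 TPM in CK. For each of these 4 the 3 libraries of ABA-100 (9.7 ℃) lay between the high groups and all others.

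**Figure D2:**
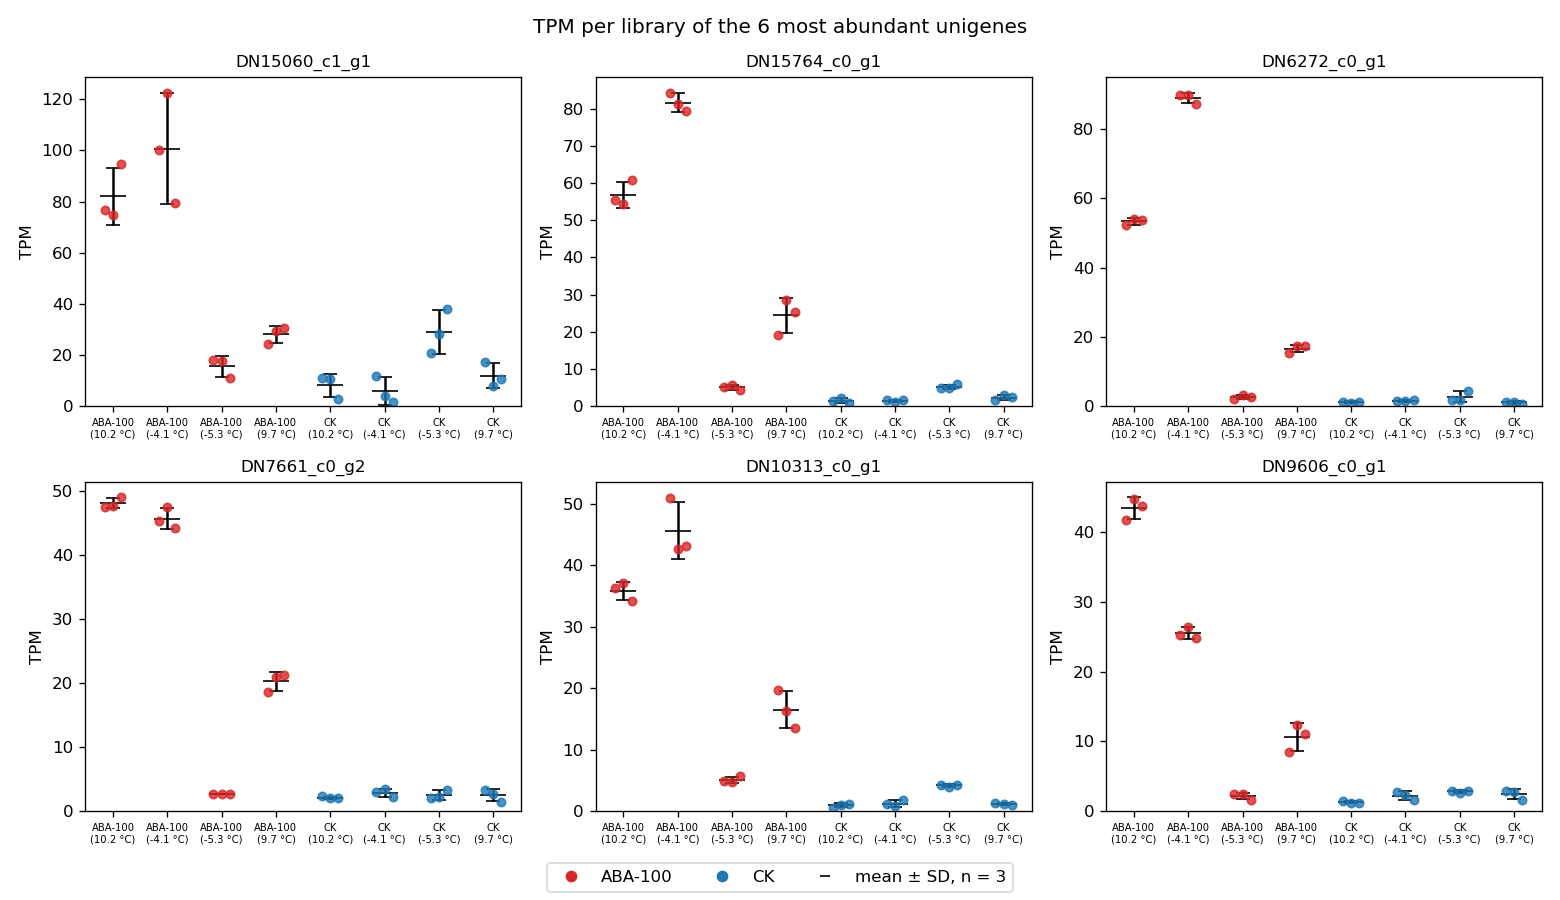
TPM of the 6 most abundant unigenes, 1 panel each, with 1 point per library (red for ABA-100, blue for CK) and black bars for the mean ± SD of the 3 libraries of each group. The highest points of each panel are in ABA-100 (10.2 ℃) and ABA-100 (-4.1 ℃), and DN15060_c1_g1 also reaches 37.9 TPM in CK (-5.3 ℃).

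The remaining members of the 10 most abundant, DN8927_c0_g2, DN28861_c0_g1, DN3069_c0_g1 and DN12433_c0_g1, were at 13.9 to 29.0 TPM in every library of the high groups. DN28861_c0_g1 had 26.7, 29.0 and 25.9 TPM in ABA-100 (-4.1 ℃), 6.81, 11.2 and 10.8 TPM in ABA-100 (9.7 ℃) and 0.26 to 2.79 TPM in CK. DN8927_c0_g2 was the exception in its low level, with 20.3, 20.6 and 20.9 TPM in ABA-100 (10.2 ℃) and 19.6, 18.8 and 17.9 TPM in ABA-100 (-4.1 ℃), against 3.22 to 9.14 TPM in the other 18 libraries. It had the smallest lead over the low groups and the highest share of its level in ABA-100 (9.7 ℃), at 44.6%.

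Many of the 28 had an intermediate level in ABA-100 (9.7 ℃). As a share of each unigene's mean TPM in the high groups, the median level was 5.75% in ABA-100 (-5.3 ℃) (range 0 to 21.5%) and 28.2% in ABA-100 (9.7 ℃) (0 to 44.6%). In CK the median share was 3.36% at 10.2 ℃, 6.41% at -4.1 ℃, 7.21% at -5.3 ℃ (0 to 31.7%) and 4.95% at 9.7 ℃ (0 to 25.4%). ABA-100 (9.7 ℃) had the highest mean of the 6 groups outside the high ones for 22 of the 28, as it did for 26.3% of all unigenes tested. Its 3 libraries lay above all 15 libraries of the other 5 groups for 15 of the 28 (7.15%), and above the 3 of ABA-100 (-5.3 ℃) for 19 (32.3%).

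The 22 unigenes did not include DN15060_c1_g1, DN28307_c0_g1, DN18990_c0_g1, DN1038_c0_g1, DN21490_c0_g2 and DN14951_c0_g2. DN28307_c0_g1, DN18990_c0_g1 and DN14951_c0_g2 were listed at 0 in all 3 libraries of ABA-100 (9.7 ℃). DN1038_c0_g1 had 0.84, 0.92 and 1.22 TPM in ABA-100 (9.7 ℃), below the mean of CK (-4.1 ℃), where its libraries were at 0.73, 2.45 and 0.48 TPM and its high value came from replicate 2. Replicate 1 was the lowest of the ABA-100 (9.7 ℃) libraries for 15 of the 28, as it was for 23.5% of all unigenes, and for DN6775_c0_g1 it had 0.53 TPM beside 2.19 and 2.63 TPM. Its summed level, 158 TPM, was still above that of all CK libraries, where the highest was 84.6 TPM. When it was left out, 30 unigenes met the rule and 21 of the 28 were among them. The 7 lost were DN8927_c0_g2, DN16683_c0_g1, DN19249_c0_g1, DN29307_c0_g1, DN6775_c0_g1, DN5823_c0_g1 and DN12509_c0_g3.

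**Figure D3:**
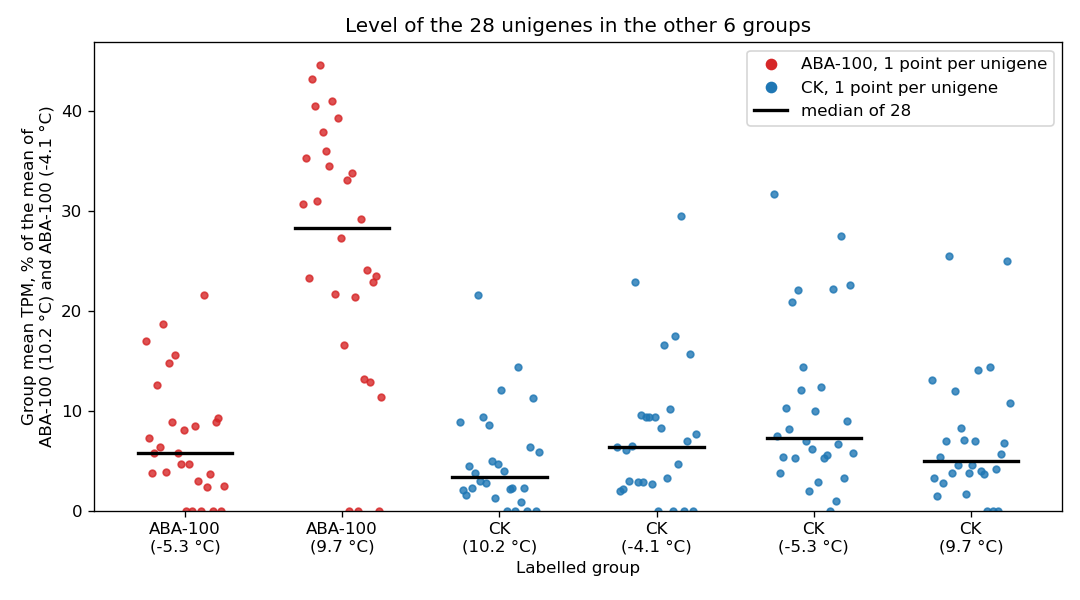
Group mean TPM of each unigene as a percentage of its mean over ABA-100 (10.2 ℃) and ABA-100 (-4.1 ℃), with 1 point per unigene for the other 6 labelled groups and a black line at the median of the 28. The median is 28.2% in ABA-100 (9.7 ℃) and 3.36 to 7.21% in the other 5 groups.

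Set beside CK of the same stage, the ABA-100 libraries were mostly apart at 9.7 ℃ and mostly overlapped at -5.3 ℃. The ABA-100 (9.7 ℃) libraries lay above the CK (9.7 ℃) libraries for 20 of the 28 (22.4% of all unigenes tested) and below for 0 (12.6%). The ABA-100 (-5.3 ℃) libraries lay above the CK (-5.3 ℃) libraries for 4 (8.31%) and below for 3 (34.3%), and overlapped otherwise. The 4 were DN10313_c0_g1, DN6775_c0_g1, DN5823_c0_g1 and DN32369_c0_g1, and the 3 were DN15060_c1_g1, DN9606_c0_g1 and DN1038_c0_g1. The ABA-100 groups of both comparisons were used to choose the unigenes, by a ceiling on their level, and whether the comparisons differ was not tested.

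In the late CK stages, whose means were not used, the 28 lay below the highest low group in the median. The distance was -0.82 in CK (-5.3 ℃) and -0.96 in CK (9.7 ℃) on the log2 scale, beside -0.15 and -0.23 over all unigenes tested. The highest low group was ABA-100 (9.7 ℃) for most of the 28, so the distance does not mark a drop below the other low groups. The mean of CK (-5.3 ℃) was at least 1 above the highest low group for 0 of the 28, and likewise that of CK (9.7 ℃). Of all unigenes tested, 0.269% passed this mark in CK (-5.3 ℃) and 0.116% in CK (9.7 ℃), so a count of 0 says little about the 28. Both high groups were at least 1 above CK (-5.3 ℃) and CK (9.7 ℃) for 26 of the 28, and 1.47% of all unigenes met the same condition. The exceptions were DN21490_c0_g2, with 2.86 TPM in replicate 3 of CK (-5.3 ℃) and 0 in the other 5 of these libraries, and DN14951_c0_g2, with 1.60 and 1.77 TPM in replicate 1 of the groups and 0 in the other 4. All 6 libraries of the high groups lay above all 6 late CK libraries for 23 of the 28 (4.19%). The rule itself sets the unigenes above 2 other CK groups, so these counts are not independent of the choice.

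Whether the 28 changed in CK leaves between the groups labelled as the deeper freeze and the recovery could be tested. Both groups share the code letter B, so they would be of the same stage if the letters mark stages. The contrast would then not be one of freeze against recovery. Of the 28, 1 fell and 0 rose in CK (9.7 ℃) against CK (-5.3 ℃) by limma on log2(TPM + 1), where a call needed a Benjamini-Hochberg p over all 21523 unigenes of no more than 0.05 and more than 1 log2 unit of change. Of all unigenes tested, 0.767% fell and 0.242% rose. A unigene can fall by more than 1 only from a mean above 1 in CK (-5.3 ℃). The median there was 0.66 for the 28 and 3.21 for all unigenes. Most of the 28 could therefore not be called as fallen, and the count cannot be set against the share of all unigenes. DN10313_c0_g1 was the unigene that fell, to 1.23, 1.19 and 0.97 TPM in CK (9.7 ℃), against 4.30, 3.93 and 4.30 TPM in CK (-5.3 ℃). Its log2 fold change was -1.28 ± 0.15 (SE), with a limma adjusted p of 7.5e-05, and the replicates of the groups did not overlap.

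At the adjusted p alone, 5 of the 28 fell and 0 rose, where 8.31% of all unigenes fell and 2.82% rose. DN15764_c0_g1 had 1.62, 2.85 and 2.35 TPM in CK (9.7 ℃), against 4.90, 4.90 and 5.80 TPM in CK (-5.3 ℃), a log2 fold change of -0.94 ± 0.17 (SE, limma adjusted p = 0.00175). DN3069_c0_g1 had 2.23, 1.83 and 1.43 TPM in CK (9.7 ℃), against 3.15, 2.51 and 4.47 TPM in CK (-5.3 ℃) (-0.61 ± 0.15, limma adjusted p = 0.0124). These were changes below the fold mark, in unigenes at a few TPM. DN6272_c0_g1 had 1.26, 1.27 and 0.68 TPM in CK (9.7 ℃), against 1.76, 1.74 and 4.49 TPM in CK (-5.3 ℃) (-0.76 ± 0.19, limma adjusted p = 0.0180). DN12433_c0_g1 had 0.69, 0.77 and 0.91 TPM in CK (9.7 ℃), against 1.38, 1.25 and 3.57 TPM in CK (-5.3 ℃) (-0.70 ± 0.19, limma adjusted p = 0.0219). In the last 3, replicate 3 of CK (-5.3 ℃) was the highest library. Without it, 2 of the 28 fell at the adjusted p alone. When limma was fitted to the 6 CK libraries alone, DN10313_c0_g1 was the 1 left of the 5. The adjusted p of the other 4 lay between 0.0514 for DN15764_c0_g1 and 0.249 for DN6272_c0_g1.

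DN15060_c1_g1 showed 17.2, 7.85 and 10.7 TPM in CK (9.7 ℃), against 20.7, 28.3 and 37.9 TPM in CK (-5.3 ℃). Its log2 fold change was as large as that of DN10313_c0_g1 (-1.24 ± 0.46, SE), but with its wider spread it did not pass (limma adjusted p = 0.0887). Over the 28 the median log2 fold change was -0.12, beside -0.07 over all unigenes, and 20 were negative (62.1% of all unigenes), 7 positive and 1 at 0. At an unadjusted p under 0.05, 7 of the 28 were lower and 0 higher, beside 19.3% of all unigenes lower and 6.82% higher. The CK (9.7 ℃) libraries lay below the CK (-5.3 ℃) libraries for 7 of the 28 (22.2% of all unigenes) and above for 1 (7.49%), DN6775_c0_g1. For each of the 7 that were below, the ABA-100 (9.7 ℃) libraries lay above the ABA-100 (-5.3 ℃) libraries, and 10.7% of all unigenes had both orders.

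**Figure D4:**
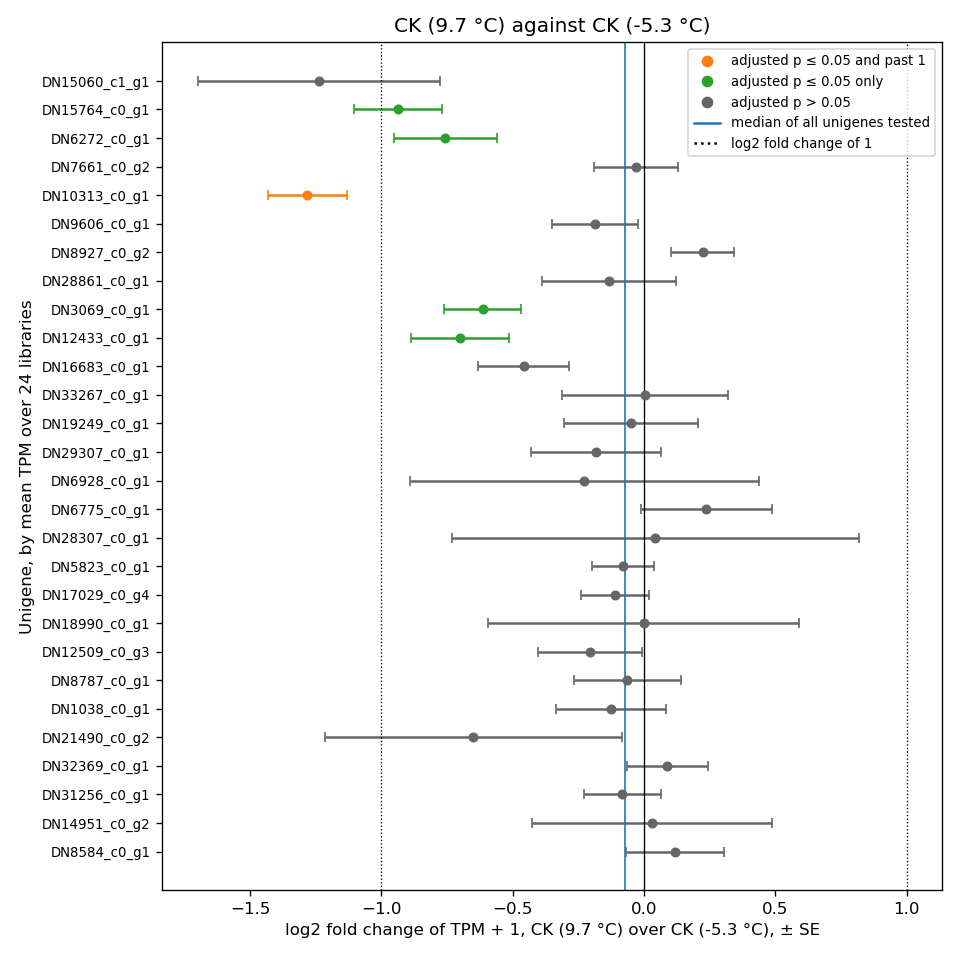
Log2 fold change of TPM + 1 in CK (9.7 ℃) over CK (-5.3 ℃) for each of the 28 unigenes, with limma standard errors, and a blue line at the median of all unigenes tested. DN10313_c0_g1 lies beyond -1 and passes the adjusted p, 4 others pass the adjusted p only, and none of the 28 passes above 0.

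Replicate 3 of CK (-5.3 ℃) had the highest summed level of the 28 among CK libraries, 84.6 TPM, beside 53.2 and 61.1 TPM in replicates 1 and 2. It was the highest of its group for 17 of the 28, against 36.7% of all unigenes. Its mean deviation from the group means was 0.17 on the log2 scale over the 28, with 20 above the mean, and 0.014 over all unigenes. It thus stood above its group in these unigenes and not in the table as a whole. At 28.3 and 37.9 TPM in replicates 2 and 3, DN15060_c1_g1 was the largest single part of the sums.

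Between the first CK stages few of the 28 differed without overlap, and more did between the first stage and CK (-5.3 ℃). The CK (-4.1 ℃) libraries lay above the CK (10.2 ℃) libraries for 4 of the 28 (9.72%), DN6272_c0_g1, DN9606_c0_g1, DN17029_c0_g4 and DN1038_c0_g1, and below for 0 (5.91%). The CK (-5.3 ℃) libraries lay above the CK (10.2 ℃) libraries for 10 (17%), with DN10313_c0_g1 at 4.30, 3.93 and 4.30 TPM in CK (-5.3 ℃), against 0.56, 1.01 and 1.19 TPM in CK (10.2 ℃). DN5823_c0_g1 had 0.23, 0.24 and 0.30 TPM in CK (-5.3 ℃), against 0.11, 0.09 and 0.11 TPM in CK (10.2 ℃), levels at which the number of reads is unknown and may be small.

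Some unigenes of lower abundance repeated the same course. DN16683_c0_g1 had 12.6, 12.8 and 13.2 TPM in ABA-100 (10.2 ℃), 14.6, 15.8 and 14.4 TPM in ABA-100 (-4.1 ℃), 4.17 to 6.63 TPM in ABA-100 (9.7 ℃), and 0.80 to 2.89 TPM in the other 15 libraries. DN19249_c0_g1 had 13.1, 16.5 and 13.1 TPM in ABA-100 (10.2 ℃), 11.5, 10.6 and 10.6 TPM in ABA-100 (-4.1 ℃), 2.14, 6.65 and 5.99 TPM in ABA-100 (9.7 ℃), and 0.07 to 0.54 TPM in CK. Its mean in ABA-100 (9.7 ℃) was 39.2% of that in the high groups, although its CK libraries were near 0. DN31256_c0_g1 and DN8584_c0_g1 were the lowest of the unigenes whose groups did not overlap, at 1.88 to 3.18 TPM in the high groups and 0 to 0.76 TPM elsewhere. DN8584_c0_g1 showed no intermediate level, with 0.15, 0.58 and 0 TPM in ABA-100 (9.7 ℃) beside 0.22, 0.47 and 0 TPM in CK (9.7 ℃).

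The course of group means closest to the median of the 28 was that of DN5823_c0_g1, followed by DN32369_c0_g1, DN6775_c0_g1, DN12509_c0_g3 and DN29307_c0_g1. The Pearson correlation with the median course over the 8 group means of log2(TPM + 1) was 0.99 for each of these, and 0.85 to 0.99 over all 28. The groups share libraries and the unigenes were chosen to be alike in 6 of the 8, so the correlations are a description. DN5823_c0_g1 had 4.38, 4.48 and 4.51 TPM in ABA-100 (10.2 ℃), 5.06, 5.60 and 5.04 TPM in ABA-100 (-4.1 ℃), 0.48, 0.32 and 0.43 TPM in ABA-100 (-5.3 ℃), and 1.42, 1.78 and 1.71 TPM in ABA-100 (9.7 ℃). Its 12 CK libraries lay between 0.04 and 0.30 TPM, and its groups of replicates hardly spread.

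For 5 of the 28 the high groups overlapped other libraries, and these were the unigenes listed at 0 in 13 or more of the 24 libraries. DN18990_c0_g1 had the largest lead of all 28 over the low groups, 2.24 on the log2 scale, and was listed at 0 in all 18 libraries outside the high groups. It had 13.9, 11.2 and 0 TPM in ABA-100 (10.2 ℃) and 3.80, 3.49 and 3.88 TPM in ABA-100 (-4.1 ℃), so that 1 library of a high group was also at 0. DN28307_c0_g1 had 2.39, 17.5 and 0 TPM in ABA-100 (-4.1 ℃), and 2.03 to 2.72 TPM in 1 library each of CK (-4.1 ℃), CK (-5.3 ℃) and CK (9.7 ℃). Values of these unigenes were either 0 or above 1 TPM, with nothing between. DN6928_c0_g1 had 1.43, 2.57 and 14.4 TPM in ABA-100 (10.2 ℃), 11.7, 3.54 and 11.8 TPM in ABA-100 (-4.1 ℃), and 1.04 to 2.73 TPM in 5 of the other 18 libraries. DN21490_c0_g2 and DN14951_c0_g2 were each listed at 0 in 17 libraries, 1 of them in ABA-100 (10.2 ℃). A value of 0 here may mean a transcript not sampled at the unknown depth, and the step between 0 and the next value was too wide for a level to be given.

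Of the unigenes nearest to the threshold, all but DN21490_c0_g2 had the high, high, low, intermediate course over the ABA-100 stages. DN8927_c0_g2 and DN21490_c0_g2 were just inside the threshold, with leads of 1.01 and 1.03 over the highest low group. DN21490_c0_g2 was listed at 0 in 17 libraries, so no course can be given for it. DN17185_c0_g1 was just outside, with a lead of 0.997, at 9.12 ± 0.47 TPM in ABA-100 (10.2 ℃) and 15.3 ± 1.95 TPM in ABA-100 (-4.1 ℃), against 4.13 ± 1.01 TPM in ABA-100 (9.7 ℃), its highest low group (SD, n = 3). DN28572_c0_g1 followed with 0.988, at 6.79 ± 0.32 and 3.40 ± 0.16 TPM in these high groups, against 1.22 ± 0.12 TPM in ABA-100 (9.7 ℃) (SD, n = 3). The median lead of the 28 was 1.21, and the lead of the median unigene tested was -0.41.

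The identifiers give the read cluster of the assembly from which a unigene was built, and unigenes of 1 cluster can share sequence. The 28 came from 28 clusters and none was shared between them. The clusters of 11 held 17 other unigenes, of which 13 passed the filter on low values, 4 had any lead over the low groups and 1 had a lead of 0.5 or more. That was DN8787_c0_g2, with 9.91 ± 1.10 TPM in ABA-100 (10.2 ℃) and 1.94 ± 0.56 TPM in ABA-100 (-4.1 ℃), and at most 0.743 TPM as a mean elsewhere (SD, n = 3). DN5823_c0_g2, of the cluster of DN5823_c0_g1, had group means of 41.7 to 53.6 TPM in all 8 groups, and DN6272_c0_g3, of the cluster of DN6272_c0_g1, 19.8 to 28.6 TPM. Few neighbours thus had the lead, but some had a like course over the ABA-100 stages with low CK means. DN15060_c0_g1 had means of 6.80, 11.7, 1.03 and 6.97 TPM over these stages and at most 1.75 TPM in CK. DN17029_c0_g3 had 1.02, 1.41, 0.217 and 1.16 TPM, and at most 0.31 TPM in CK. Others, such as DN5823_c0_g2 and DN6272_c0_g3, did not share it. How the authors' read assignment divided reads within a cluster was not examined.

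Among the 12 hub unigenes of the study, the 5 assigned to its turquoise module were the most alike. Over the 8 group means, DN477_c0_g1, annotated as a protein serine/threonine phosphatase, had a correlation of 0.89 with the median course of the 28. DN3958_c0_g1, annotated as ferrochelatase, which inserts iron into protoporphyrin in the last step of heme synthesis, had 0.87. It averaged 25.7 TPM in ABA-100 (10.2 ℃), 73.9 TPM in ABA-100 (-4.1 ℃), 13.6 TPM in ABA-100 (-5.3 ℃) and 35.9 TPM in ABA-100 (9.7 ℃), and 10.1 TPM in CK (10.2 ℃). It therefore peaked at -4.1 ℃ alone and was higher at 9.7 ℃ than at 10.2 ℃ in ABA-100, so it failed both parts of the rule, as did the other turquoise hubs. The hubs of the brown and grey modules had negative correlations.

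The unigenes were also chosen with 1 library at a time left out of its group mean, and that library was then read. The filter on low values still counted the left-out library, so it was not wholly outside the choice. The other replicates of its group also took part in the choice, and most unigenes tested had no lead over the low groups. The shares over all unigenes therefore do not give what the choice alone would bring, and the shares below are a description. The mark was the midpoint between the mean of the high groups and the mean of the low groups, taken without that library. For each left-out library of the high groups, 76.5 to 93.3% of the unigenes chosen without it were above their midpoint, as were 30.2 to 49.1% of all unigenes tested. Below the midpoint were 93.1 to 100% in libraries of CK (10.2 ℃) and CK (-4.1 ℃), beside 40.1 to 44.7% of all unigenes. In libraries of ABA-100 (9.7 ℃), the low group nearest to the high ones, 50.0 to 59.4% were below, beside 32.3 to 44.3% of all unigenes. In ABA-100 (-5.3 ℃), 96.7% were below in replicates 1 and 2, beside 61.7 and 60.0% of all unigenes. In its replicate 3 it was 49.1%, less than the 70.3% of all unigenes. There 25 of the 57 unigenes chosen passed the filter only because that library was at 1 TPM or more, so this share was largely set by the choice.

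Within groups the 28 spread somewhat more than other unigenes. The median SD of log2(TPM + 1) between replicates was 0.23 for the 28 and 0.17 for all unigenes tested. It ranged between 0.08 and 1.02 among the 28, and the 4 widest were unigenes listed at 0 in 13 or more libraries. The median correlation between pairs of the 28 in their deviations from the group means was 0.04, beside 0.026 between pairs of all unigenes. The median pair thus showed little shared deviation over all libraries, but single libraries did deviate for many of the 28. In replicate 3 of CK (-5.3 ℃), 20 were above the group mean, with a mean deviation of 0.17 (0.014 over all unigenes). In replicate 3 of CK (9.7 ℃), 6 were above it, with a mean deviation of -0.092 (-0.027 over all unigenes). The common course described above is one of group means.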

How the data were processed

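RNA-Seq of leaves was performed by the authors in 8 groups of 3 libraries. Reads were trimmed by the authors with SeqPrep and then Sickle. Unigenes came from a Trinity assembly made without a genome, and RSEM gave their abundance. Versions are not given in the sources used here. The deposited unit is TPM, for which the authors divided by transcript length and brought all libraries to 1 total, so read depth is unknown and no counting error can be given. The authors' own test of changed genes needs read counts and was not repeated. All 24 columns were used.

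Groups and replicate numbers were taken from the deposited labels. From the TPM values, log2(TPM + 1) was computed, and unigenes that reached 1 TPM in 3 libraries or more were kept. The rule that chose the 28 unigenes is given in the results. The members, named unigenes and lists were chosen with earlier results of these data known. CK (9.7 ℃) was tested against CK (-5.3 ℃) with limma 3.58.1 in R 4.3.3, with a mean per group over all 24 libraries, a mean-variance trend and Benjamini-Hochberg adjustment over all unigenes kept. A call needed an adjusted p no higher than 0.05 and a log2 fold change beyond 1 in size. On this scale the change of low unigenes is understated. The code was tested on simulated data.

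The named unigenes were the 10 with the highest mean TPM, the 8 with the largest lead over the low groups, those called in CK, the 4 lowest and 4 highest in late CK relative to the low groups, 2 on each side of the threshold, the 5 nearest to the median course, and up to 3 hubs. Other members were named where a count or an exception singled them out, after their values were seen. Alternatives were another pseudocount, median-of-ratios scaling, quantile normalization, other filters and thresholds, group medians, limma without the trend, a fit of 6 libraries, a replicate block, and leaving out each library.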

Additional observations from a re-analysis of the deposited data

Results flagged for a closer look

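For 7 of the 28 unigenes every ABA-100 (9.7 ℃) library lay above every ABA-100 (-5.3 ℃) library, while every CK (9.7 ℃) library lay below every CK (-5.3 ℃) library. Of all unigenes tested, 10.7% met both conditions. The groups are as labelled, and each comparison is between groups that share a code letter, D in ABA-100 and B in CK. The difference between the ABA-100 and CK changes was not tested, because the ABA-100 groups entered the choice of the unigenes. It was 3.03 on the log2(TPM + 1) scale for DN6272_c0_g1, with a change of 2.28 in ABA-100 and -0.76 in CK. For DN15764_c0_g1 it was 2.99, with 2.06 in ABA-100 and -0.94 in CK. For DN10313_c0_g1 it was 2.79, with 1.51 in ABA-100 and -1.28 in CK. It was 2.15 for DN12433_c0_g1, 2.08 for DN15060_c1_g1, 1.60 for DN3069_c0_g1 and 0.91 for DN1038_c0_g1, where CK changed by -0.12 only.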

How the results depend on the processing

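The number of unigenes that meet the rule depended on the settings. In place of 28, it was 77 with a pseudocount of 0.1 (23 of the 28 among them), 48 with group medians (21 among them), 48 with a difference of at least 0.8, 4 with a difference of at least 1.5, and 6 with a mean of at least 10 TPM. Median-of-ratios scaling gave 35 and quantile normalization 37, each with 27 of the 28. With 1 library left out of its group mean and the filter unchanged, 28 to 57 met the rule. The 57 arose only without replicate 3 of ABA-100 (-5.3 ℃), and at most 34 met it otherwise. Of the 29 unigenes added in that run, 25 passed the filter only with the left-out library counted. Membership changed more than the count, since 21 of the 28 were left without replicate 1 of ABA-100 (9.7 ℃), 24 without replicate 3 of ABA-100 (10.2 ℃), and 25 to 28 without any other library.

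Of the 28, 1 fell in CK (9.7 ℃) against CK (-5.3 ℃). With a pseudocount of 0.1 it was 4, and with the adjusted p alone 5, of which 1 was left when the 6 CK libraries were fitted alone. Leaving out 1 library gave 1 to 2, with 2 only without replicate 2 of CK (9.7 ℃), and none rose under any alternative run. The fold change of DN10313_c0_g1 stayed between -1.80 and -1.17, with limma adjusted p between 5.7e-05 and 0.0115. With a replicate block the number that fell was 1. Between CK (9.7 ℃) and CK (-5.3 ℃), libraries with the same number deviated with correlations of -0.08 to -0.02 over unigenes, so the numbers were not taken as pairs in this test. The other groups were not compared in this way, and a set of unigenes described below was shared by replicate 3 of several ABA-100 groups. With a pseudocount of 0.1, 1 unigene in CK (-5.3 ℃) and 1 in CK (9.7 ℃) was at least 1 above the low groups, in place of 0 each, beside 1.5% and 1.03% of all unigenes. Unigenes below about 1 TPM are the most affected by the pseudocount.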

Other observations

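A set of 215 unigenes had at least 1 TPM in replicate 3 of ABA-100 at 10.2 ℃, at -4.1 ℃ and at -5.3 ℃ and in no other library. Of these, 197 were listed at 0 in all 21 other libraries, and the highest value elsewhere was 0.89 TPM. They summed to 1597, 1853 and 1919 TPM in the 3 libraries, which is 0.160, 0.185 and 0.192% of the library total. The most abundant was DN14389_c0_g1, with 491, 540 and 640 TPM, followed by DN28358_c0_g1, with 227, 235 and 247 TPM. None of the 28 unigenes belonged to this set, which was noticed after the values were seen, and its source was not tested.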
